A study of Mus musculus with 2 samples.

Results

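The cells described here are nonclassical monocytes that carry few neutrophil transcripts, taken from a droplet single-cell RNA sequencing study of mouse spleen. A cell was counted as a member when Ace, Treml4, Adgre4 and Cd300e together had at least 2 unique molecular identifiers (UMIs, one per captured transcript). It also had at most 2 UMIs of the classical monocyte genes Ccr2, F13a1 and Fn1, less than 5% of its UMIs from the neutrophil genes S100a8 and S100a9, fewer than 2 UMIs of the B cell genes Cd79a, Cd79b and Ms4a1, and fewer than 2 UMIs of the dendritic cell genes Xcr1, Clec9a and Siglech. Of 14646 cells in the series, 188 met the rule. They were 98 of 9155 cells from tumour-bearing PyMT mice and 90 of 5491 cells from wild-type (WT) mice.

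The PyMT library held the pooled spleens of 3 tumour-bearing mice whose strain is labelled PYMT, and the WT library held the pooled spleens of 5 control FVB/n mice. PyMT mice are a mammary tumour model named for a polyomavirus middle T transgene. The promoter of the transgene, the strain background, the age of the mice and the tumour stage are not given in the sources used here. In both libraries viable CD11b+/Gr1+ cells were sorted after red cell lysis. The Gr1 antibody binds Ly6G and Ly6C, and nonclassical monocytes carry little Ly6C, so the gate bears on how many of them entered each library.

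Nonclassical monocytes arise in the mouse from Ly6C-high classical monocytes under the control of the nuclear receptor Nr4a1, and depend on M-CSF and Notch signals. They stay in the circulation and the spleen, crawl along the endothelium with the integrin LFA-1, sense fractalkine through Cx3cr1, and take up particles and dying cells. They present antigen on MHC class II molecules in some settings.

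With 1 pooled library per group there is no test between PyMT and WT mice. UMIs were summed over the members of a library and given as CPM (the gene's UMIs per 1000000 UMIs of that class), with exact Poisson 95% intervals. Ratios are log2 PyMT over WT or log2 nonclassical over classical, with exact 95% counting intervals. These intervals and those on shares of cells cover counting error only and say nothing of the spread between mice. Those on CPM and on ratios of CPM also leave out the spread between cells. The members held 521843 UMIs in PyMT and 440694 UMIs in WT mice, with medians of 4966.5 UMIs per PyMT cell and 4725 UMIs per WT cell. A gene was compared when it had at least 50 UMIs over both sums, and was counted as higher or lower when it differed by at least 1.5-fold. Among all cells, 72 barcodes occurred in both libraries, and 1 member in each library had such a barcode.

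Cells lay close to the lines of the rule on both sides. Ace encodes angiotensin-converting enzyme, Treml4 a receptor for dead cells, Adgre4 an adhesion G protein-coupled receptor and Cd300e an activating receptor of monocytes. Together they had a median of 6 UMIs per member in PyMT mice and 4 in WT mice, with highest cells at 22 and 14. Just inside the rule, 11 PyMT and 21 WT members had exactly 2 of these UMIs. Just outside it, 20 PyMT and 22 WT cells had 1 such UMI and met every other condition. A further 208 PyMT and 92 WT cells that met the other conditions had none, and 75 PyMT and 49 WT members had at least 4. On the classical side, 29 PyMT and 25 WT members had 2 UMIs of Ccr2, F13a1 and Fn1, while 27 PyMT and 22 WT cells had 3 and were left out. In all, 363 PyMT and 160 WT cells met every other condition but had more than 2 such UMIs. Those cells outnumber the members and belong to neither monocyte class used here. The share of S100a8 and S100a9 ran from 0.935% to 4.82% in PyMT members, against 0.263% to 2.53% in WT members. Its medians were 1.43% in PyMT and 0.746% in WT members, beside 1.38% in PyMT and 0.763% in WT B cells, which should lack both genes. Another 61 PyMT and 113 WT cells had the monocyte genes and at least 5% neutrophil UMIs, with median depths of 10914 and 11934 UMIs, and were not included.

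**Figure D1:**
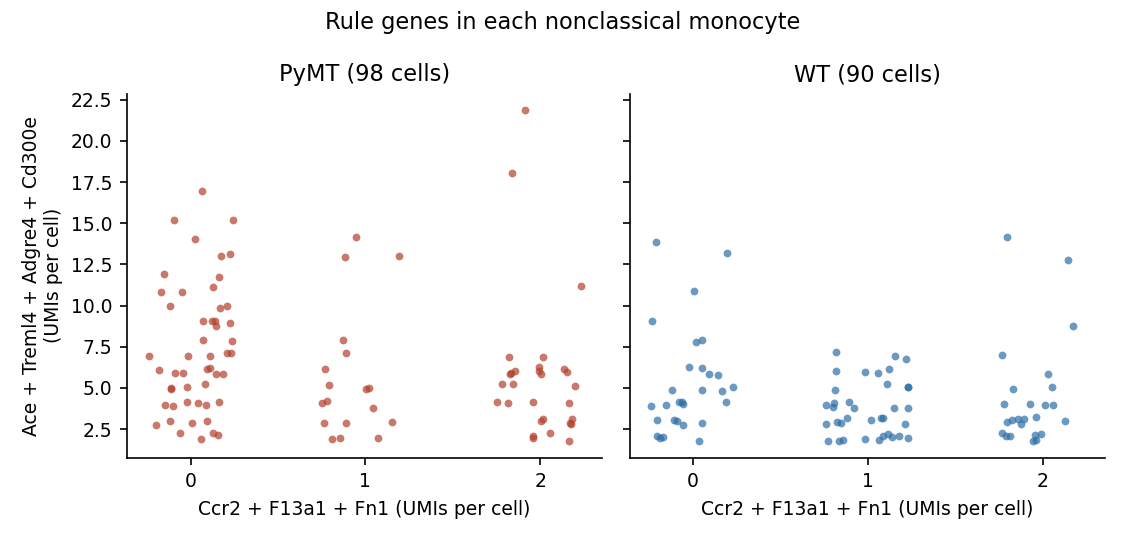
Summed UMIs per cell of Ace, Treml4, Adgre4 and Cd300e against summed UMIs of Ccr2, F13a1 and Fn1, for PyMT and WT cells. Only members are drawn, with medians of 6 UMIs of the nonclassical genes in PyMT and 4 in WT members.

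Several genes that the rule did not name showed the nonclassical pattern. Classical monocytes of the same libraries, with at least 3 UMIs of Ccr2, F13a1 and Fn1 and at most 1 of the nonclassical genes, served for comparison (1154 PyMT and 318 WT cells). Because the classes were cut from counts of these same cells, all differences between them are descriptions. Nr4a1, which nonclassical monocytes need to develop, was at 307 CPM in PyMT and 275 CPM in WT nonclassical cells, against 76.1 CPM in PyMT and 105 CPM in WT classical cells. After thinning each cell to 2500 UMIs, a Nr4a1 UMI was present in 55.1% of PyMT and 51.1% of WT members, in 17.1% and 24.2% of PyMT and WT classical cells, and in 2.33% and 2.36% of PyMT and WT B cells. Cx3cr1 was at 261 CPM in PyMT and 356 CPM in WT members, against 83.0 CPM in PyMT and 193 CPM in WT classical cells. Spn, the sialoglycoprotein CD43 that marks nonclassical cells by flow cytometry, was at 174 CPM in PyMT and 152 CPM in WT members, against 27.1 and 48.9 CPM in PyMT and WT classical cells. In both libraries all of these genes were higher in the nonclassical cells. Fcgr4, another marker of these cells that is described below, had very few UMIs in WT members.

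Of 4304 genes compared in both libraries, 226 (5.25%) were at least 1.5-fold higher in nonclassical than in classical cells in both, and 196 (4.55%) were lower in both. Of 16 compared genes in a list of nonclassical monocyte genes outside the rule, 13 were higher in both libraries and none was lower. The median log2 ratio of that list was 1.54 in PyMT and 0.93 in WT mice, beside medians of -0.03 and -0.04 over all genes compared in PyMT and WT mice. Eno3, the muscle isoform of the glycolytic enzyme enolase, had log2 ratios of 6.80 in PyMT and 3.78 in WT mice. The lipid transfer protein gene Pltp had log2 ratios of 4.58 and 1.84, the Ly6 family gene Ly6i 3.72 and 2.38, and Gngt2, a G protein gamma subunit, 2.08 and 2.43 in PyMT and WT mice. The anti-apoptotic Bcl2 relative Bcl2a1a stood at 4.97 and 3.28, although its reads cannot be told apart with certainty from those of its near-identical copies. Abi3, an actin regulator, Tmem51, a membrane protein, and Agpat4, a phospholipid synthesis enzyme, lay between 1.65 and 2.34 in both libraries.

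Some classical monocyte genes and most of the compared cell cycle genes were lower in the nonclassical cells. Of 22 compared classical monocyte genes outside the rule, 8 were lower in both libraries (4.55% of all genes) and 1, Pltp, was higher. Ly6c2, which encodes Ly6C, was at 458 CPM in PyMT and 669 CPM in WT members, against 1758 CPM in PyMT and 1387 CPM in WT classical cells. S100a10, the annexin A2 partner, had log2 ratios of -1.65 in PyMT and -1.02 in WT mice, and Emb, a cell adhesion glycoprotein, had -1.23 and -1.09. Of 13 compared cell cycle genes, 11 were lower in both libraries, with medians of -2.06 in PyMT and -2.31 in WT mice. The microtubule regulator Stmn1 had 2 UMIs in all PyMT members and 1 UMI in all WT members.

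**Figure D2:**
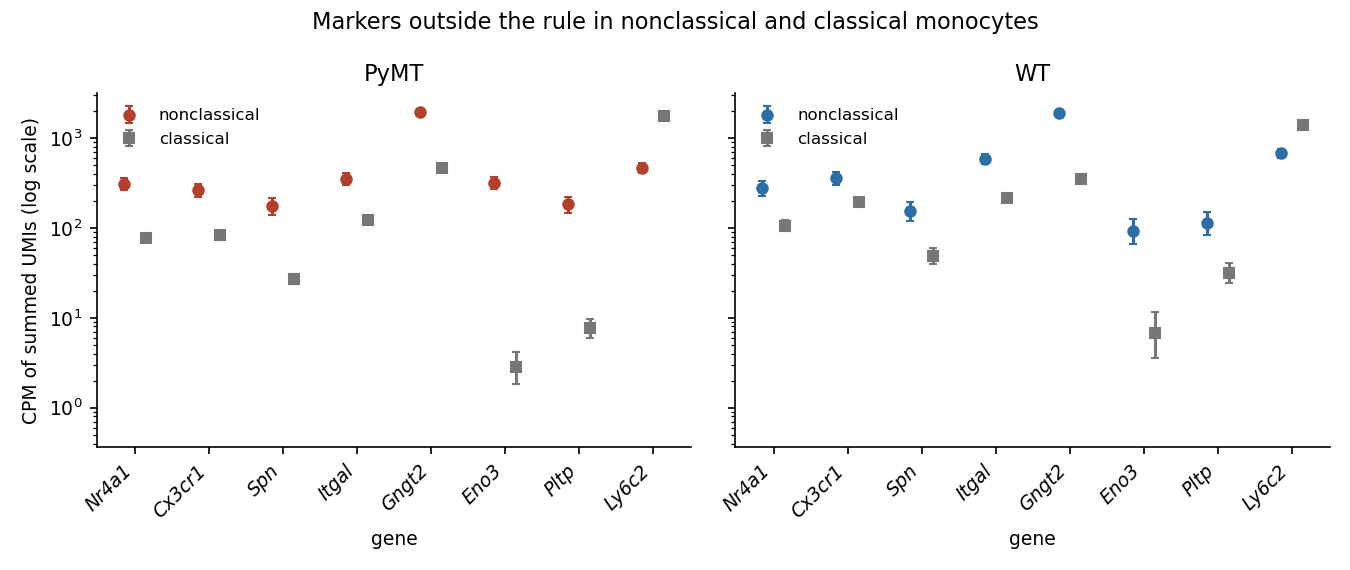
CPM, on a log axis, of 8 genes outside the rule in nonclassical and classical cells of each library, with exact Poisson 95% intervals. Nr4a1 stands at 307 and 275 CPM in PyMT and WT nonclassical cells, against 76.1 and 105 CPM in PyMT and WT classical cells, and Ly6c2 shows the opposite order.

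B, T and NK cell markers were low in the members, while the dendritic cell and macrophage marker lists were above their B cell levels. The 9 B cell markers outside the rule summed to 23 CPM in PyMT and 11.3 CPM in WT members, against 4091 and 3699 CPM in PyMT and WT B cells, with 3 at 0 in PyMT and 5 at 0 in WT members. The 16 T and NK cell markers summed to 46.0 CPM in PyMT and 45.4 CPM in WT members, with 8 at 0 in PyMT and 11 at 0 in WT members. The 12 dendritic cell markers outside the rule summed to 172 CPM in PyMT and 343 CPM in WT members, with 6 at 0 in each library. They summed to 112 and 135 CPM in PyMT and WT B cells, and to 241 and 615 CPM in PyMT and WT classical cells. Cd209a, which marks a dendritic-cell-like monocyte fraction, was at 0 in all 188 cells, which allows a share of up to 1.60% of cells with a UMI. Flt3, the receptor of the dendritic lineage growth factor, had 3 UMIs in PyMT and 2 UMIs in WT members. Batf3, of the dendritic cell list, was present in both libraries. It was at 27.6 CPM in PyMT and 113 CPM in WT members with no UMI of Ccr2, F13a1 and Fn1. With 1 or 2 such UMIs it was at 32.9 CPM in PyMT and 144 CPM in WT members. The 17 splenic macrophage markers summed to 527 CPM in PyMT and 340 CPM in WT members, with 4 at 0 in PyMT and 5 at 0 in WT members. They summed to 57.8 and 36.5 CPM in PyMT and WT B cells, and to 177 and 171 CPM in PyMT and WT classical cells. C1qa, a complement subunit of tissue macrophages, had 23 UMIs in 4 PyMT members and 5 UMIs in 1 WT member.

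Nonclassical cells made up a smaller share of the PyMT library than of the WT library under the rule as stated. They were 1.07% of all PyMT cells (exact binomial interval 0.870 to 1.30) and 1.64% of all WT cells (1.32 to 2.01). Among nonclassical plus classical monocytes they were 7.83% in PyMT mice (6.40 to 9.46) and 22.1% in WT mice (18.1 to 26.4). That sum leaves out 363 PyMT and 160 WT cells that had the nonclassical genes and more than 2 UMIs of Ccr2, F13a1 and Fn1. The log2 ratio of the share of all cells was -0.61, but it became 0.077 when members with any UMI of Ccr2, F13a1 or Fn1 were left out, where 51 PyMT and 29 WT cells remained. The log2 ratio of the share among both monocyte classes was -1.49 and fell in size to -0.98 under that condition. The rule counts UMIs, so the share also depends on depth. When cells were thinned to 2500 UMIs before the rule, 137 of 9155 PyMT and 107 of 5491 WT cells were members. With at least 4 UMIs of the nonclassical genes, 75 PyMT and 49 WT cells were. The 188 cells passed a sort on Gr1, and only shares of sorted cells are given here. Fewer nonclassical cells in the spleens, fewer in the gate, and more sorted cells of other kinds cannot be told apart.

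Between PyMT and WT members, 2165 genes had at least 50 UMIs. Of these, 263 (12.1%) were at least 1.5-fold higher in PyMT members and 156 (7.21%) were at least 1.5-fold lower, together 19.4%. Higher genes were thus 62.8% of those past the fold, and 50.3% (197 higher, 195 lower) when libraries were scaled by the trimmed mean of M-values. The counting interval left out 0 for 196 (9.05%) of the higher and 115 (5.31%) of the lower genes, as shares of all 2165. The median log2 ratio over all 2165 genes was 0.05. Some of the higher genes were also higher in PyMT B cells. Of the 263, 82 (31.2%) were at least 1.5-fold higher in PyMT than in WT B cells too. Of all 2165 genes, 211 (9.75%) differed by at least 1.5-fold in B cells in the same direction as in the members. That share mixes higher and lower genes. Another measure, a level no more than 1.5 times that in B cells of the same library, held for 108 (41.1%) of the 263. That is below the 51.7% of all 2165 genes. Which of these genes B cells express themselves was not checked. In classical monocytes, where 8116 genes were compared, 704 (8.67%) were higher and 720 (8.87%) lower in PyMT mice. There 67 of the 263 higher and 47 of the 156 lower genes differed in the same direction by at least 1.5-fold.

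**Figure D3:**
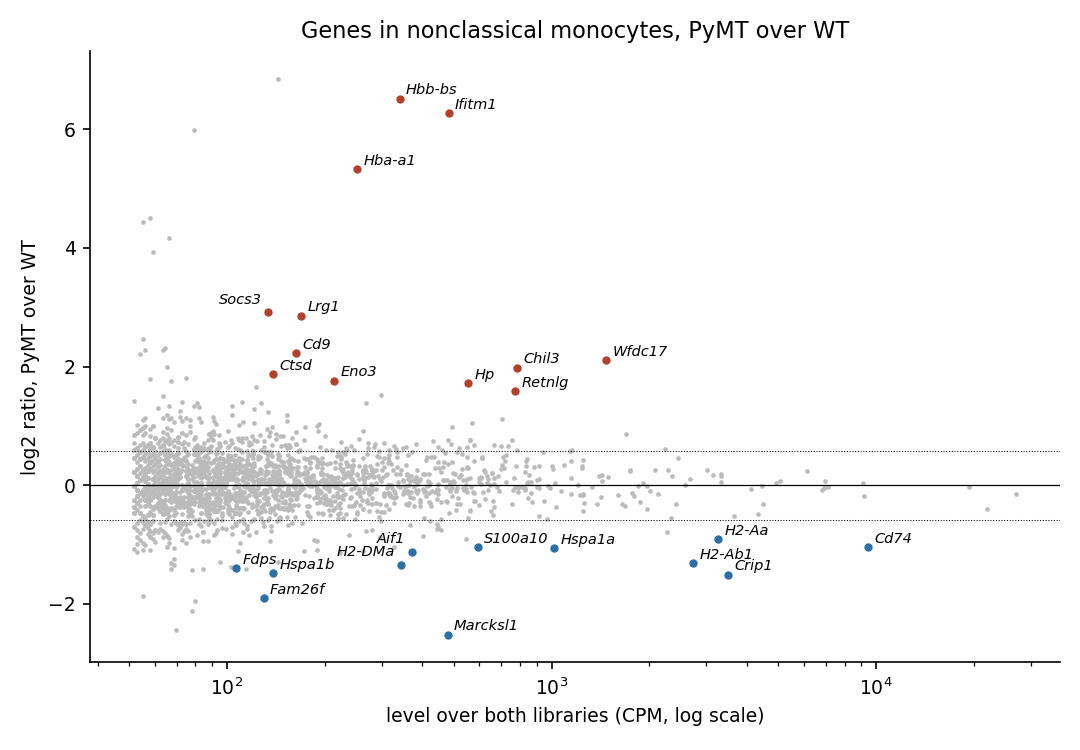
Log2 ratio of PyMT over WT nonclassical cells against mean level for 2165 genes, with dotted lines at 1.5-fold. Ifitm1 and the haemoglobin genes lie at the top, while Marcksl1, Crip1 and several MHC class II genes lie at the bottom among genes of high level.

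MHC class II genes were lower in PyMT members. These genes encode the alpha and beta chains that show peptides to CD4 T cells, the chaperone Cd74 that escorts them, and the H2-DM complex that loads the peptide. Of 11 listed genes 6 had 50 UMIs, and all 6 were at least 1.5-fold lower in PyMT members, against 7.21% of all genes. Their median log2 ratio was -1.09, and it was -1.61 over the 10 of the 11 genes compared in classical monocytes, all of them lower there. Cd74 was at 6341 CPM in PyMT and 13120 CPM in WT members, a log2 ratio of -1.05 (-1.11 to -0.99). H2-Aa, the alpha chain of I-A, was at 2334 CPM in PyMT and 4373 CPM in WT members, a log2 ratio of -0.91 (-1.01 to -0.80). H2-Ab1, the beta chain of I-A, was at 1627 CPM in PyMT and 4028 CPM in WT members, a log2 ratio of -1.31 (-1.43 to -1.19). All 3 intervals lay below 0, but they do not cover the spread between cells. In PyMT mice, the 18 members with the highest MHC class II level held 2718 Cd74 UMIs, and the other 80 held 591. Without the 3 highest cells of each library the log2 ratios were -1.40 for Cd74, -1.39 for H2-Aa and -1.91 for H2-Ab1, all outside the intervals above. H2-Aa had a log2 ratio of -0.53 (-0.66 to -0.40) in the members with at least 4 UMIs of the nonclassical genes, short of 1.5-fold. It had -1.96 (-2.14 to -1.78) in members with no UMI of Ccr2, F13a1 and Fn1, and -0.30 (-0.43 to -0.16) in members with 1 or 2. The loading genes H2-DMa, H2-DMb1 and H2-DMb2 had log2 ratios of -1.34, -1.13 and -0.84. The beta chain gene H2-Eb1 had 15 UMIs in PyMT and 19 UMIs in WT members, and Ciita, the transactivator that drives these genes, had 1 UMI in PyMT and 13 UMIs in WT members, so neither was compared.

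B cells of the same libraries differed the other way. H2-Aa was at 8975 CPM in PyMT and 7098 CPM in WT B cells, and Cd74 was at 18887 CPM in PyMT and 13753 CPM in WT B cells. In classical monocytes the log2 ratios were -2.58 for H2-Aa, -2.77 for H2-Ab1 and -2.73 for Cd74, farther from 0 than in the members. The 2 classes were cut unlike, since classical cells had no limit on B and dendritic cell genes. In classical cells, B cell markers outside the rule summed to 80.4 CPM in PyMT and 218 CPM in WT mice. Dendritic cell markers there summed to 241 CPM in PyMT and 615 CPM in WT mice. The part of such cells in the classical ratios was not tested. Whether the ratio differs between the classes beyond the spread between mice was not tested. Within each library the members were above classical cells, with log2 ratios for Cd74 of 3.18 in PyMT and 1.5 in WT mice and for H2-Ab1 of 3.16 and 1.70.

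Promoters of 3 of these lower genes are shown because MHC class II genes share a compact promoter in which a CCAAT box, called the Y box, binds NF-Y. The letters are 250 bases before to 50 bases after the gene start, from RefSeq on GRCm38.p6, which is the mm10 assembly, and the capitals mark ATTGG, the reverse of CCAAT. H2-Aa lies at chr17:34287774-34288073 on the minus strand, H2-DMb1 at chr17:34152941-34153240 on the plus strand and H2-DMb2 at chr17:34144999-34145298 on the plus strand.
H2-Aa: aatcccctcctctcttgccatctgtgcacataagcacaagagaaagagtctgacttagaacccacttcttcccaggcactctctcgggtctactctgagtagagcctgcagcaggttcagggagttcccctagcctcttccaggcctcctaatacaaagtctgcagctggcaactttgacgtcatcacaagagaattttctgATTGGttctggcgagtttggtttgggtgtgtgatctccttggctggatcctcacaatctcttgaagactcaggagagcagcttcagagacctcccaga
H2-DMb1: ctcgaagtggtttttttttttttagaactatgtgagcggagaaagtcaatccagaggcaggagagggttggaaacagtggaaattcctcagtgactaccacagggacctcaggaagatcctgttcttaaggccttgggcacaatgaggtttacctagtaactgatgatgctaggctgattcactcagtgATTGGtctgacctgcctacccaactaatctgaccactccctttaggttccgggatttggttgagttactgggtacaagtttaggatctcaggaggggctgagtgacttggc
H2-DMb2: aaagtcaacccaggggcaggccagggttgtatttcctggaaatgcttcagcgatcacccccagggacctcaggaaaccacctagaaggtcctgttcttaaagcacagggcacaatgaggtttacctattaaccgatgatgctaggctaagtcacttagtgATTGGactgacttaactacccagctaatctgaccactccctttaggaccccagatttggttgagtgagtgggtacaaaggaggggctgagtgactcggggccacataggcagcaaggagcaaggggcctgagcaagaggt
The motif begins at -48 in H2-Aa, -61 in H2-DMb1 and -90 in H2-DMb2. The 8 of the 11 listed genes with an entry in the table had 9 promoters there, of which 8 held ATTGG or CCAAT on either strand, beside 12289 of 32851 promoters (37.4%) of the same length. H2-DMa had 2 promoters, 1 without the motif and 1 with it beginning at -198. The match describes the letters only.

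Fewer PyMT than WT members had a high MHC class II level. Summed over Cd74, H2-Aa, H2-Ab1 and H2-Eb1, the median cell had 1569 CPM in PyMT members and 8705 CPM in WT members, while the highest cells reached 77950 and 89910 CPM. The sum exceeded 10000 CPM in 18 of 98 PyMT members, or 18.4% (11.3 to 27.5), and in 44 of 90 WT members, or 48.9% (38.2 to 59.7). The same 18 and 44 cell counts were found after thinning to 2500 UMIs. In classical monocytes the counts were 24 of 1154 PyMT cells, or 2.08%, and 79 of 318 WT cells, or 24.8%. These classical cells were chosen without limits on B and dendritic cell genes. The line of 10000 CPM cuts a range and not a type, since 11 PyMT and 21 WT members lay between 5000 and 20000 CPM. Above the line Cd74 was at 24005 CPM in PyMT and 23280 CPM in WT members, a log2 ratio of 0.04 (-0.02 to 0.11), which is a description because this sum chose the cells. At or below it Cd74 was at 1446 CPM in PyMT and 1957 CPM in WT members. The groups overlapped over nearly their whole range, and 11 PyMT and 4 WT members had no UMI of these genes.

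**Figure D4:**
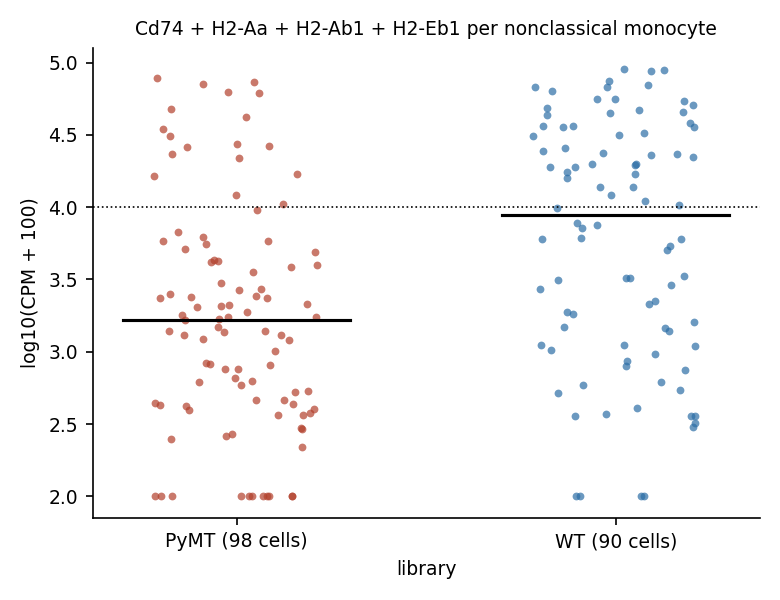
Summed CPM per cell of Cd74, H2-Aa, H2-Ab1 and H2-Eb1 on a log axis for the nonclassical cells of PyMT and WT mice, with the median as a black line and 10000 CPM as a dotted line. Of the nonclassical cells, 18 of 98 lie above the dotted line in PyMT and 44 of 90 in WT mice.

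Markers of other antigen-presenting cells were given for the cells above the line. B cell markers had a median of 0 UMIs per cell in both libraries there. Dendritic cell markers had medians of 1.5 UMIs in PyMT and 2 UMIs in WT cells above the line, against 0 in PyMT and 1 in WT cells at or below it. Of these markers, Batf3 was at 26.5 CPM in PyMT and 178 CPM in WT cells above the line. At or below the line Batf3 was at 31.8 CPM in PyMT and 85.7 CPM in WT cells. Splenic macrophage markers summed to 1325 CPM in PyMT and 485 CPM in WT cells above the line, against 306 and 181 CPM in PyMT and WT cells at or below it. Of the 150 macrophage marker UMIs in PyMT cells above the line, 93 came from 1 cell. Their part in the MHC class II difference was not tested. The list median stayed between -1.93 and -0.84 under every setting that gave a value, including those without cells that had 2 or more C1q UMIs.

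Marcksl1, a membrane-bound actin regulator, had the lowest ratio of the named genes, at 151 CPM in PyMT and 867 CPM in WT members, a log2 ratio of -2.52 (-2.89 to -2.16). A single WT cell held 79 of its 382 WT UMIs, and without the 3 highest cells of each library the log2 ratio was -2.00. Marcksl1 went with MHC class II among WT members, at 1417 CPM above the line of 10000 CPM and 262 CPM at or below it. In PyMT members it was at 238 CPM above and 127 CPM at or below the line. Above the line, 3 WT cells held 201 of its 327 UMIs. Without the 3 highest cells of each library there, it was at 41.3 CPM in PyMT and 591 CPM in WT members. Crip1, a LIM domain protein gene abundant in myeloid cells, was at 1895 CPM in PyMT and 5378 CPM in WT members, a log2 ratio of -1.50 (-1.61 to -1.40). Aif1, the actin-bundling protein Iba1, was at 242 CPM in PyMT and 524 CPM in WT members (-1.12, -1.44 to -0.80). Fam26f, a pore protein family member, had a log2 ratio of -1.91, and the cholesterol synthesis gene Fdps had -1.39. Both Crip1 and Aif1 were lower in PyMT classical cells too, at -0.88 and -1.29.

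Several defining nonclassical genes had counting intervals that included 0, while some effector genes of the same list were higher in PyMT members. Of 27 nonclassical monocyte genes outside the rule, 18 had 50 UMIs, 7 were higher (12.1% of all genes) and 1 lower, with a median of 0.18. Nr4a1 had a log2 ratio of 0.16 (-0.19 to 0.51), Spn 0.20 (-0.27 to 0.68), Gngt2 0.04 (-0.09 to 0.17) and the transcription factor Pou2f2 0.08 (-0.23 to 0.38). The M-CSF receptor gene Csf1r was at 535 CPM in PyMT and 560.5 CPM in WT members. Cx3cr1 had a log2 ratio of -0.45 (-0.79 to -0.11). In members with no UMI of Ccr2, F13a1 and Fn1 the log2 ratio of Cx3cr1 was 0.026 (-0.55 to 0.62), and in members with 1 or 2 it was -0.74 (-1.19 to -0.30). For Spn these log2 ratios were 1.25 (0.48 to 2.09) with no such UMI and -0.99 (-1.75 to -0.27) with 1 or 2. Of the rule genes, which chose the cells, Ace was at 343 CPM in PyMT and 241 CPM in WT members, Treml4 at 349 and 284 CPM, Adgre4 at 381 and 302 CPM, and Cd300e at 165 and 84.0 CPM.

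Eno3 was at 316 CPM in PyMT and 93 CPM in WT members, a log2 ratio of 1.76 (1.26 to 2.30). After thinning, 43.9% of PyMT and 13.3% of WT members had an Eno3 UMI, beside 1.96% of PyMT and 3.38% of WT B cells, whose median depths were 3415.5 and 3720.5 UMIs. Fcgr4, the activating IgG receptor typical of nonclassical monocytes, had 54 UMIs in PyMT and 3 UMIs in WT members, a log2 ratio of 3.93 (2.30 to 6.25). It was found in 18.4% of PyMT and 1.11% of WT members after thinning, beside 1.02% and 0.676% of PyMT and WT B cells, and 1 PyMT cell held 17 of the 54 UMIs. Without the 3 highest cells of each library its log2 ratio was 3.21. S1pr5, the sphingosine phosphate receptor that lets these cells leave the bone marrow, was at 99.7 CPM in PyMT and 29.5 CPM in WT members (1.76, 0.86 to 2.76). Lair1, an inhibitory collagen receptor, was at 155 CPM in PyMT and 59.0 CPM in WT members (1.40, 0.74 to 2.09). In classical cells the log2 ratios of Fcgr4, S1pr5 and Lair1 were 0.56, 1.00 and 0.19.

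Transcription factors, growth factor receptors and survival genes were compared next. Of 26 monocyte transcription factors, 18 had 50 UMIs, 1 was higher and 2 lower (19.4% of all genes passed either way), with a median of 0.09. Cebpb, which nonclassical monocytes need for survival, was at 2455 CPM in PyMT and 2212 CPM in WT members, and Klf2, a quiescence factor, at 1295 and 974 CPM. The inhibitor of DNA binding Id2 was the higher one at a log2 ratio of 0.68, and the interferon regulatory factors Irf1 and Irf7 were the lower ones at -0.83 and -0.64. None of the 6 compared Notch and M-CSF pathway genes passed 1.5-fold either way. The Notch target Hes1 was at 128 CPM in PyMT and 123 CPM in WT members, against 16 CPM in PyMT and 47.8 CPM in WT classical cells, and at 126 CPM in PyMT and 137 CPM in WT B cells. Of 11 compared Bcl2 family and death genes, 1 was higher and 2 lower (19.4% of all genes either way), with a median of -0.47. The short-lived survival protein gene Mcl1 was at 243 CPM in PyMT and 354 CPM in WT members (-0.54), short of 1.5-fold.

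Adhesion genes went both ways. Of 21 listed, 15 were compared. The median was 0.25, with 3 genes higher (12.1% of all genes) and 3 lower (7.21% of all genes). Itgal, the alpha chain of LFA-1, was at 349 CPM in PyMT and 585 CPM in WT members, a log2 ratio of -0.75 (-1.03 to -0.47), and its ligand gene Icam1 had -1.42 (-2.20 to -0.69). The tetraspanin Cd9 was at 255 CPM in PyMT and 54.5 CPM in WT members, a log2 ratio of 2.23 (1.59 to 2.92). It was detected after thinning in 37.8% of PyMT and 10% of WT members, beside 12.4% and 15.2% of PyMT and WT B cells, so the WT value was no higher than the B cell value. In classical cells Cd9 had a log2 ratio of -0.34 (-0.74 to 0.08). The integrin beta chain Itgb1 was at 197 CPM in PyMT and 113 CPM in WT members (0.80).

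Some receptors for chemoattractants were higher in PyMT members, and some chemokine ligands were lower. Of 7 compared among 19 receptors, 3 were higher (12.1% of all genes) and none lower, with a median of 0.20. They were S1pr5, the complement C5a receptor C5ar1 at 144 CPM in PyMT and 56.7 CPM in WT members (1.34, 0.67 to 2.06), and the neutrophil chemokine receptor Cxcr2 with 46 UMIs in PyMT and 7 UMIs in WT members (2.47, 1.32 to 3.86, and 3.55 without the 3 highest cells of each library). Cxcr2 was at 88.2 CPM in PyMT members and 78.8 CPM in PyMT B cells. Of 4 compared among 18 ligands, none was higher and 2 were lower (7.21% of all genes). Cxcl16, the ligand of Cxcr6, had 12 UMIs in PyMT and 55 UMIs in WT members (-2.44, -3.48 to -1.52, and -3.24 without the 3 highest cells of each library), and Ccl3, an inflammatory chemokine, had 30 UMIs and 62 UMIs (-1.29, -1.97 to -0.64).

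Inflammatory and NF-kB genes leaned lower in PyMT members, with Il1b on the other side. Of 14 compared among 25 listed, 7 were lower (7.21% of all genes) and 1 higher, with a median of -0.47. In members with no UMI of Ccr2, F13a1 and Fn1 the median was -0.20. The lower ones included Icam1, the costimulatory receptor gene Cd40 (-1.05), the mitochondrial superoxide dismutase Sod2 at 134 CPM in PyMT and 256 CPM in WT members (-0.93), the NF-kB subunit Rel (-0.85) and the apoptosis inhibitor Birc3 (-0.78). Il1b, the fever cytokine interleukin-1 beta, was at 425 CPM in PyMT and 148 CPM in WT members, a log2 ratio of 1.53 (1.12 to 1.95). A single WT cell held 18 of its 65 WT UMIs, and without the 3 highest cells of each library the log2 ratio was 2.37. Its B cell levels were 312 CPM in PyMT and 117 CPM in WT mice, with a log2 ratio of 1.42. The part of free RNA in the difference was not tested.

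Interferon response genes included 13 of 41 that could be compared, of which 5 were lower (7.21% of all genes) and none higher, with a median of -0.20. The guanylate-binding protein gene Gbp2 was at 34.5 CPM in PyMT and 134 CPM in WT members (-1.96, -2.81 to -1.17), and the GTPase gene Ifi47 had -1.07. Ifitm3, an antiviral membrane protein, was at 4438 CPM in PyMT and 4466 CPM in WT members. MHC class I and antigen processing genes had 3 lower (7.21% of all genes) and none higher of 17 compared, with a median of -0.35, and B2m, the shared light chain, was at 7119 CPM in PyMT and 6746 CPM in WT members. The 3 lower ones were H2-Q6, the peptide transporter Tap1 (-0.83) and the proteasome activator Psme2 (-0.74). Of 10 compared heat shock genes 3 were lower (7.21% of all genes) and none higher, with a median of -0.44. Hspa1a was at 680.3 CPM in PyMT and 1418 CPM in WT members (-1.06, -1.25 to -0.87). Its reads may be shared with its copy Hspa1b (-1.48), and both were lower in PyMT B cells and classical cells as well. Of 15 compared immediate-early genes 3 were lower (7.21% of all genes) and none higher, with a median of -0.12. Fos, a factor induced by dissociation and stimulation, was at 832 CPM in PyMT and 905 CPM in WT members.

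Genes of lysosomes, lipid handling and glycolysis leaned higher in PyMT members. Of 18 compared lysosomal genes 4 were higher (12.1% of all genes) and none lower, with a median of 0.25. They included the cathepsins Ctsd at 209 CPM in PyMT and 56.7 CPM in WT members (1.88, 1.24 to 2.57) and Ctsc (0.63) and the protease Lgmn (0.66). Of 8 compared lipid and efferocytosis genes 4 were higher (12.1% of all genes) and none lower, with a median of 0.49. The apolipoprotein Apoe was at 2654 CPM in PyMT and 1734 CPM in WT members (0.61, 0.49 to 0.74), and Nr1h3, the sterol receptor LXR alpha, was at 90.1 CPM in PyMT and 31.8 CPM in WT members (1.5, 0.62 to 2.48). Nr1h3 had no UMI in B cells of either library. Of 10 compared glycolysis genes 6 were higher (12.1% of all genes) and none lower, with a median of 0.62, which was 0.55 with the trimmed mean of M-values. Besides Eno3 they included pyruvate kinase Pkm at 689.9 CPM in PyMT and 408 CPM in WT members (0.76) and lactate dehydrogenase Ldha at 347 and 213 CPM (0.70). All 31 nuclear oxidative phosphorylation genes were compared and none passed 1.5-fold, with a median of -0.11.

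S100a4 and S100a10 were lower in PyMT members. Of 6 compared S100 genes outside the rule, these 2 were lower (7.21% of all genes) and none higher, with a median of -0.48. S100a4, a calcium-binding protein of motile cells, was at 1692 CPM in PyMT and 2936 CPM in WT members (-0.80, -0.92 to -0.67), and S100a10 was at 401 CPM in PyMT and 824 CPM in WT members (-1.04, -1.29 to -0.79). In classical cells the log2 ratios were -0.12 and -0.41.

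Neutrophil genes were still present as a low level. Of 13 compared neutrophil markers, 7 were higher (12.1% of all genes) and none lower in PyMT members, with a median of 0.69, and the whole list summed to 7968 CPM in PyMT and 4874 CPM in WT members. In B cells, the same list summed to 6444 CPM in PyMT and 4483 CPM in WT mice, cells that should lack these genes. Ifitm1, an interferon-induced membrane protein, had 459 UMIs in PyMT and 5 UMIs in WT members, a log2 ratio of 6.28 (5.04 to 7.91). It was at 879.6 CPM in PyMT members and 769.5 CPM in PyMT B cells, and at 11.3 CPM in WT members and 23 CPM in WT B cells. Retnlg, a resistin-like granule protein, was at 1113 CPM in PyMT and 372 CPM in WT members, against 1071 CPM in PyMT and 347 CPM in WT B cells. Lrg1, a neutrophil glycoprotein, was at 279.8 CPM in PyMT and 38.6 CPM in WT members, against 214 CPM in PyMT and 18.2 CPM in WT B cells. The haemoglobin gene Hbb-bs had 325 UMIs in PyMT and 3 UMIs in WT members, but 289 of the 325 lay in 1 cell, and in B cells it was at 1327 CPM in PyMT and 5.55 CPM in WT mice. The part of free RNA in these differences was not tested.

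Genes that exceeded the B cell level in PyMT members included Wfdc17, Chil3, Hp and Socs3. Wfdc17, a secreted antimicrobial-type protein, was at 2271 CPM in PyMT and 526 CPM in WT members, a log2 ratio of 2.11 (1.90 to 2.32), against 882 CPM in PyMT and 46.8 CPM in WT B cells. Chil3, the chitinase-like protein Ym1, was at 1194 CPM in PyMT and 302 CPM in WT members (1.98, 1.71 to 2.27), against 169 and 135 CPM in PyMT and WT B cells. Haptoglobin, Hp, was at 813 CPM in PyMT and 247 CPM in WT members (1.72), against 265 and 104 CPM in PyMT and WT B cells. Chil3 and Hp are also on the list of classical monocyte genes. Of 17 genes compared there, 7 were higher in PyMT members (12.1% of all genes) and none lower, with a median of 0.38. Chil3 was at 767 CPM in PyMT and 199 CPM in WT members with no UMI of Ccr2, F13a1 and Fn1. With 1 or 2 such UMIs it was at 1499 CPM in PyMT and 350 CPM in WT members. Socs3, which damps cytokine receptor signals, stood at 222 CPM in PyMT and 29.5 CPM in WT members (2.91, 2.08 to 3.87, and 3.53 without the 3 highest cells of each library), and 36.7% of PyMT and 6.67% of WT members had a UMI after thinning, beside 9.96% and 3.72% of PyMT and WT B cells. A list of suppressive myeloid cell genes that the study took from these libraries had 12 of 18 genes compared. In it 5 were higher (12.1% of all genes) and 1 lower (7.21% of all genes), with a median of 0.42. Because the list was chosen on these samples, it is not independent evidence of its direction. The higher ones were Socs3, Wfdc17, Ctsd, Il1b and the lipase Pla2g7 (0.76), and the lower one was Irf7.

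**Figure D5:**
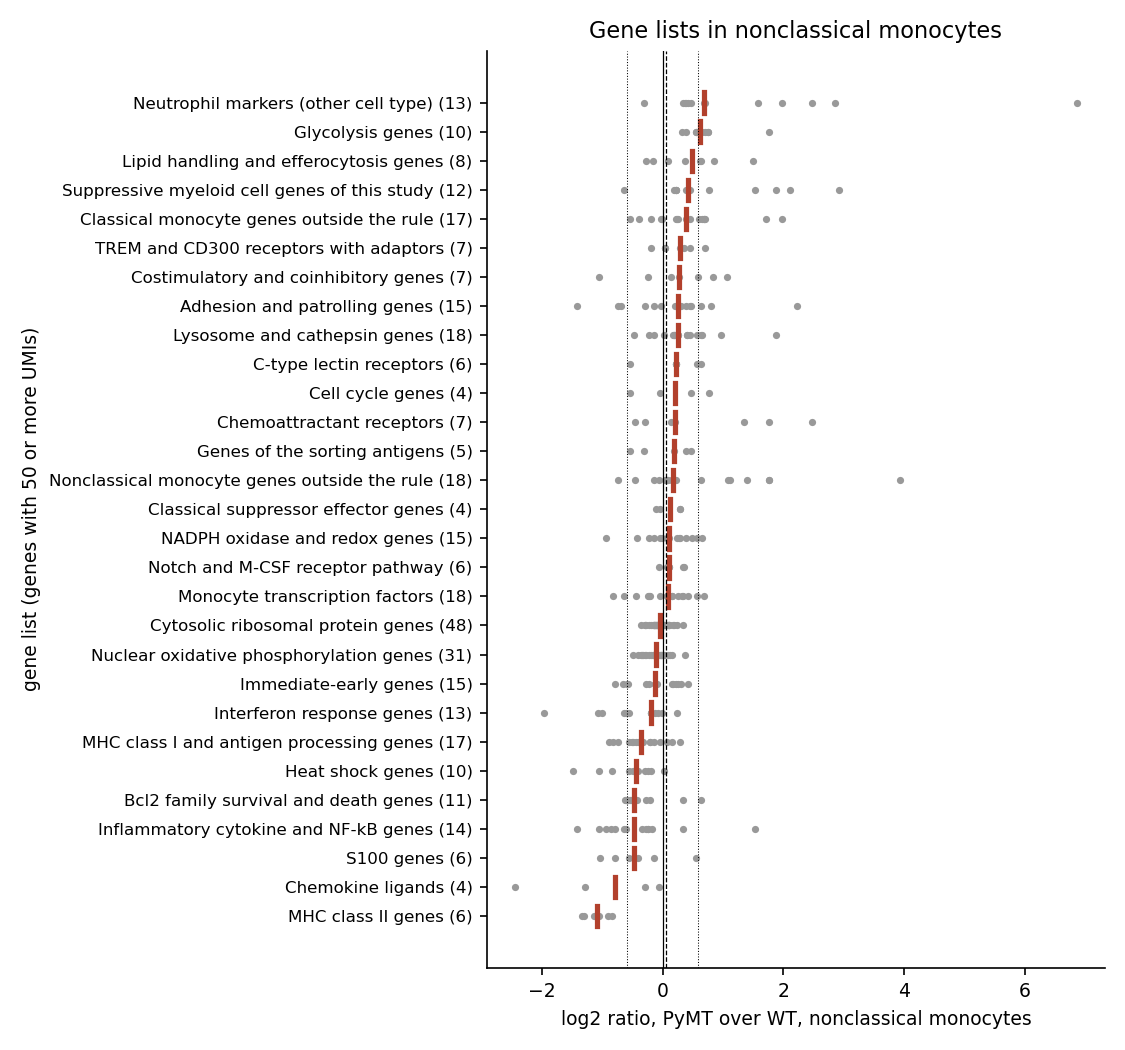
Log2 ratio of PyMT over WT nonclassical cells for the compared members of each gene list with at least 4 of them, with the list median as a bar, the median of all genes as a dashed line and 1.5-fold as dotted lines. The MHC class II median lies at -1.09, the inflammatory median at -0.47, the glycolysis median at 0.62 and the oxidative phosphorylation median at -0.11.

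The members were not uniform within a library. Among PyMT members, the 51 cells with no UMI of Ccr2, F13a1 and Fn1 had Eno3 at 551 CPM, and the 47 cells with 1 or 2 such UMIs had 148 CPM. Cd9 was at 505 CPM in the first set and 75.6 CPM in the second, and Fcgr4 was at 207 and 29.6 CPM. Among WT members, the 29 cells with no such UMI had Eno3 at 149 CPM and Cd9 at 21.3 CPM, while the 61 cells with 1 or 2 had Eno3 at 66.7 CPM and Cd9 at 70.1 CPM. Within the cells with no classical UMI, the log2 ratio of PyMT over WT was 1.89 (1.21 to 2.63) for Eno3 and 4.57 (2.99 to 6.87) for Cd9. Within the cells with 1 or 2, it was 1.15 (0.36 to 1.99) for Eno3 and 0.11 (-0.81 to 1.04) for Cd9. The 2 intervals for Cd9 did not overlap, but they leave out the spread between cells and between mice. The WT cells with no classical UMI held only 3 Cd9 UMIs. The difference between these sets was not tested. Median depths were 3873 UMIs in PyMT and 4722 UMIs in WT cells with no classical UMI, and 6689 UMIs in PyMT and 4728 UMIs in WT cells with 1 or 2. Cd74 was at 5052 CPM in PyMT and 16952 CPM in WT cells with no classical UMI, a log2 ratio of -1.75 (-1.85 to -1.64), and at 7264 CPM in PyMT and 11317 CPM in WT cells with 1 or 2, a ratio of -0.64 (-0.72 to -0.56).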

How the data were processed

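Viable CD11b+/Gr1+ spleen cells of 3 pooled PyMT and 5 pooled WT mice were sequenced with the 10x Chromium 3' kit, version 2, per the labels' protocols, with a mean of 48488 reads per cell. The deposited matrices hold UMI counts per gene and cell (27998 genes), made with Cell Ranger 2.1.0 on mm10, per the submitters' processing notes. The PyMT library has 9155 cells and 73435307 UMIs, and the WT library has 5491 cells and 42542700 UMIs. The lowest cell had 2502 UMIs in PyMT and 2752 UMIs in WT mice, and no further cell filter was applied. Doublets were not called. As an alternative, cells over the 95th percentile of UMIs of their class and cells with 2 or more T and NK marker UMIs were left out (7 PyMT and 9 WT members).

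For each library, the UMIs of all cells in a class were added up and divided by their total. Poisson, Clopper-Pearson and conditional binomial 95% intervals were computed with Python 3.11.15 and scipy 1.17.1. The code for ratios and their intervals was run on Poisson counts simulated from the summed profile of the members. That simulation leaves out the clustering of UMIs in single cells, so it does not show how the intervals perform on the real cells. Trimmed means of M-values came from edgeR 4.0.16 in R 4.3.3. Genes of the rule, ribosomal and mitochondrially encoded genes and receptor segments were left out of counts of genes past 1.5-fold. B cells with at least 6 UMIs of Cd79a, Cd79b and Ms4a1 gave the level of free RNA for genes that they do not express. The named genes were the 12 highest and 12 lowest of each comparison by the interval bound nearest 0 among genes with at least 100 UMIs, up to 4 genes per list, the marker genes and the genes of the sorting antigens. Further genes were named after their values were seen. The members, the lists and the rule for names were chosen with earlier results of these data known. Alternatives changed the scaling, the UMI minimum, the depth, the rule and the cells kept, and those on S100 genes under 2%, haemoglobin, C1q and the 3 highest cells were chosen after seeing the data. Copies such as Bcl2a1a, Hspa1a and the H2 genes may share reads. Each group is 1 library of pooled mice, so animals are not separated. Some items are not reported here.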

Additional observations from a re-analysis of the deposited data

Results flagged for a closer look

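Eno3 and Pltp differed in opposite directions between PyMT and WT mice in the 2 monocyte classes. Eno3 had a log2 ratio of PyMT over WT of 1.76 (1.26 to 2.30) in nonclassical cells and -1.25 (-2.27 to -0.16) in classical cells. Its classical levels were 2.85 CPM in PyMT and 6.76 CPM in WT mice, below the 9.55 CPM and 12.7 CPM of PyMT and WT B cells, so the classical ratio rests on levels at or under that of free RNA. Pltp had a log2 ratio of 0.68 (0.17 to 1.21) in nonclassical cells, at 182 CPM in PyMT and 113 CPM in WT mice, and of -2.06 (-2.58 to -1.53) in classical cells, at 7.63 CPM in PyMT and 31.7 CPM in WT mice. The difference between the classes was not tested for either gene, since each group is 1 library.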

How the results depend on the processing

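No paired analysis was possible because each group is 1 library. The median log2 ratio of all genes was -0.02 to 0.06 over 5 scalings. With at least 10 UMIs, 1238 genes were higher and 905 lower in PyMT members, and 497 higher and 561 lower in nonclassical than classical cells. With at least 200 UMIs these counts were 50, 26, 75 and 46, and the inflammatory list had too few genes for a median. In cells thinned to 2500 UMIs they were 151, 94, 137 and 89, and the inflammatory median was -0.61. It was -0.59 with S100 genes under 2% and -0.20 with 0 UMIs of Ccr2, F13a1 and Fn1. With at least 4 UMIs of the nonclassical genes the log2 ratio of the share of all cells was -0.12. With 0 UMIs of Ccr2, F13a1 and Fn1 it reversed to 0.077, the share of both monocyte classes was at -0.98, 148 genes were higher and 60 lower, and Cd40 reversed to 0.11. With S100 genes under 1%, 1 PyMT and 77 WT cells remained, the shares had log2 ratios of -7.00 and -3.28, and gene values were not computed. With the rule applied to thinned cells, 107 genes were lower in nonclassical cells and Ifi204 reversed to 0.15. Against classical cells without B and dendritic cell transcripts, Ebf1 came to 1.25 in PyMT members, set by a floor of 3 counts for 0 UMIs, and to 0.84 in WT members on 1 UMI, and neither gives a direction. The causes of the other reversals were not tested. Of the other gene values, 2264 stayed within the counting interval of the value reported, 21 of them with a change of sign, and 224 did not, 11 with a change of sign. Of the other list medians, 373 stayed on their side of 1.5-fold, 15 passed it and 12 no longer did. The 98 PyMT and 90 WT cells limit precision, so genes with few UMIs have wide intervals.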
